A study of Homo sapiens with 12 samples.

Results

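MOLM-14 and MV4-11 are established cell lines of acute myeloid leukaemia (AML) that share a pair of driver lesions and differ in many others. Both carry a fusion of the histone methyltransferase gene KMT2A and an internal tandem duplication of the receptor gene FLT3 (FLT3-ITD). The fusion partner is MLLT3 in MOLM-14 and AFF1 in MV4-11. The comparison took 6 of the 12 libraries of the series. They were the 3 of MOLM-14 and the 3 of MV4-11, chosen by the cell line named in the labels, and genes were set side by side between the lines.

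The study grew 4 AML lines, MOLM-14, MV4-11, OCI-AML3 and KG-1a, for 12 h with 10 µM pioglitazone, with 10 µM darglitazone, or with the solvent DMSO as control. Pioglitazone and darglitazone are thiazolidinediones, synthetic agonists of the nuclear receptor PPARG. Every line had 1 library per treatment, so the 3 libraries of a line are a DMSO, a pioglitazone and a darglitazone library and are not repeat cultures. Total RNA was depleted of ribosomal RNA and made into stranded libraries. All 12 libraries were fitted together with line and treatment as terms, so OCI-AML3 and KG-1a also enter the estimates of spread. The p-values measure only the spread between these 12 libraries. Each fusion type is represented by 1 line, so a difference between the lines cannot be told apart from any other difference in their history, genome or culture.

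A KMT2A fusion protein keeps the part of KMT2A that finds chromatin and joins it to a partner that recruits elongation factors. Its known targets include the later HOXA genes and MEIS1, which hold blood progenitors in an immature state. FLT3-ITD is a receptor tyrosine kinase that is active without its ligand and signals through STAT5, RAS and PI3K. Cells with these lesions usually look like immature monocytic or granulocytic cells.

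The libraries of MOLM-14 held 30200067, 23130977 and 9421700 estimated counts, and those of MV4-11 held 8969561, 7527825 and 32192329, in the order DMSO, pioglitazone, darglitazone. That order is used for all values below. Levels are in CPM, the counts of a gene relative to the library total after scaling between libraries. Of 9 myeloid identity genes (SPI1, CEBPA, MPO, CD33, LYZ, ELANE, CSF1R, ITGAM and CD14), 8 were at 1 CPM or more in every library of both lines, and CD14 was below that in all of them. Markers of T cells summed to between 0.696 and 3.63 CPM, and those of red cells and platelets to between 0 and 11.7 CPM. Markers of B cells summed to between 58.4 and 66.4 CPM in MOLM-14 and between 15.1 and 36.2 CPM in MV4-11, and markers of stromal and epithelial cells to between 87.8 and 106 CPM and between 97.4 and 176 CPM. Most of these sums came from PAX5 in MOLM-14, IGLL1 in MV4-11, and PECAM1 and KRT18 in both, while the B cell genes MS4A1 and VPREB1 were at 0 in all 6 libraries.

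A feature of the MV4-11 libraries bears on what follows. Genes high in MOLM-14 and near 0 in at least 1 MV4-11 library (18 protein-coding genes) stood in the MV4-11 DMSO library at a median of 2.38% of their MOLM-14 level. In the MV4-11 darglitazone library they stood at 1.24%, and in the pioglitazone library at 0.15%. Genes chosen the same way from OCI-AML3 (21 genes) stood in the MV4-11 DMSO, pioglitazone and darglitazone libraries at medians of 1.58%, 0.02% and 0.29%, and those from KG-1a (90 genes) at 0.35%, 0.34% and 0.74%. In the reverse direction, 20 genes of MV4-11 stood at medians of 0.12%, 0.16% and 0.11% of their level in the 3 MOLM-14 libraries. Whether these low levels are reads carried over between libraries, and their part in the results, was not tested. For a MOLM-14 gene near 0 in MV4-11 a fold change therefore depends on which MV4-11 libraries are used, and its value without the DMSO and darglitazone libraries is given only for some of the genes.

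Of 15424 genes tested, 5719 (37.1%) passed the threshold of 0.05 after Benjamini-Hochberg adjustment in edgeR's quasi-likelihood test. They divided almost evenly, with 2875 (18.6%) higher in MOLM-14 and 2844 (18.4%) higher in MV4-11. A difference of at least 4-fold beside the threshold was found for 807 genes (5.23%) in favour of MOLM-14 and for 976 (6.33%) in favour of MV4-11. The 3 libraries of one line all lay above the 3 of the other for 9280 genes (60.2%). Fitting the 6 libraries alone gave 3813 genes higher in MOLM-14 and 3812 higher in MV4-11. Leaving out the pioglitazone libraries of OCI-AML3 and KG-1a gave 3327 and 3092. With the MV4-11 DMSO and darglitazone libraries left out, 1287 and 1474 genes passed. In bulk RNA, fewer cells with a transcript and less of it per cell cannot be told apart. The sign of the difference was the same under each treatment taken alone for 5713 of the 5719 genes in DMSO, 5696 in pioglitazone and 5714 in darglitazone. These genes were called from the same libraries, so such agreement was largely fixed by their selection and is no separate support.

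The genes with the largest difference in favour of MOLM-14, among those at 10 CPM or more in each of its libraries, included WNT7B and FLNC. WNT7B, a secreted ligand of the WNT pathway (chromosome 22, 45920362 to 45977129, GENCODE 29 on GRCh38), stood at 143, 138 and 126 CPM in MOLM-14. Its MV4-11 libraries stood at 2.59, 0.129 and 1.25 CPM, so the lines did not overlap and the pioglitazone library was the lowest. The fitted log2 fold change of WNT7B was 6.70 with a standard error (SE) of 0.42 and an edgeR adjusted p of 4.63e-07, and 9.89 when the MV4-11 pioglitazone library alone stood for MV4-11. WNT7B was below 1 CPM in every library of OCI-AML3 and KG-1a.

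FLNC, a large actin crosslinker best known from muscle (chromosome 7, 128830377 to 128859274), had the same profile. It stood at 55.1, 55.5 and 59.0 CPM in MOLM-14 and at 1.14, 0.129 and 0.488 CPM in MV4-11 (log2 fold change 6.61, SE 0.42, edgeR adjusted p = 4.57e-08). Without the MV4-11 DMSO and darglitazone libraries the fitted value for FLNC was 8.77.

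RTL8B, a gene derived from a retrotransposon on chromosome X, gave the largest fitted log2 fold change on the MOLM-14 side among these genes, 8.48 (SE 0.77). It stood at 10.3, 10.7 and 10.1 CPM in MOLM-14 and had 1 count over the 3 MV4-11 libraries together. RTL8B has close copies beside it, so its share of their reads is uncertain. ADAMTS9, a secreted metalloprotease that cuts proteoglycans, stood at 20.7, 20.0 and 19.2 CPM against 0.104, 0 and 0.061 CPM. The lysophosphatidic acid receptor gene LPAR3 stood at 18.8, 22 and 19.8 CPM against 0.104, 0.129 and 0.0915 CPM. The unconventional myosin gene MYO6 and the solute carrier gene SLC22A23 completed the 5 largest, with fitted values of 7.55 and 7.26. ADAMTS9, LPAR3, MYO6 and SLC22A23 were below 1 CPM in every library of KG-1a and OCI-AML3 too, while RTL8B reached 5.70 to 7.83 CPM in OCI-AML3.

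The other 8 genes of the largest 15 on this side, beside WNT7B and FLNC, spanned fitted log2 values from 6.64 to 7.16. They were the homeobox gene DLX5, the ephrin gene EFNA5, the neuronal pentraxin gene NPTX2, the autophagy gene RUBCNL, SH3RF3, the cationic amino acid transporter gene SLC7A2, the phosphatase gene PTPN13 and the zinc finger gene ZNF521. For ZNF521 the MOLM-14 values of 113, 112 and 112 CPM stood against 2.69, 0 and 0.915 CPM in MV4-11, and OCI-AML3 held it at 113 to 163 CPM.

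On the MV4-11 side the fitted log2 fold changes reached further, to -12.94 for SIGLEC12. SIGLEC12 encodes a member of the family named for sialic acid binding immunoglobulin-like receptors (chromosome 19, 51491357 to 51501789). It stood at 54.2, 45.8 and 54.9 CPM in MV4-11 and had no count in any MOLM-14 library. Pooled over the 3 libraries of each line on scaled totals, and set against a floor of 3 counts over the 3 MOLM-14 libraries, SIGLEC12 was at least 1120.0-fold higher in MV4-11. PITX1, a homeobox gene of limb and pituitary development (chromosome 5), stood at 331, 358 and 365 CPM against 0.232, 0 and 0 CPM. Its 7 counts in MOLM-14 gave a pooled ratio of 3210.0, with a 95% counting interval from 1560.0 to 7990.0 that covers counting error only. PITX1 was also present in OCI-AML3, at 53.5 to 94.5 CPM.

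MGMT, the enzyme that removes alkyl groups from guanine in DNA, stood at 17.2, 12.8 and 17.2 CPM in MV4-11 and at 0 in the 3 MOLM-14 libraries, which makes it at least 347-fold higher. It did not exceed 0.419 CPM in any library of OCI-AML3 or KG-1a. MACROH2A2, a gene for a variant histone of silent chromatin, was likewise at 0 in MOLM-14 and at 13.5, 12.8 and 10.8 CPM in MV4-11, at least 243-fold higher. The imprinted gene NDN had 1 count in MOLM-14 and stood at 24.2, 24.2 and 25.3 CPM in MV4-11. The potassium channel genes KCNE5 (245, 249 and 241 CPM in MV4-11) and KCNK10 (55.6, 47.1 and 55.7 CPM) did not exceed 0.129 CPM in a MOLM-14 library. RAB32, a gene of melanosome and lysosome traffic, had 1 count in MOLM-14 and 22.1, 25.2 and 27.3 CPM in MV4-11. HIST1H3C, H3C8, H3C7, H4C6, H2BC10 and H2BC9, all histone genes, and CDKN2A filled the remaining places and are described below.

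**Figure D1:**
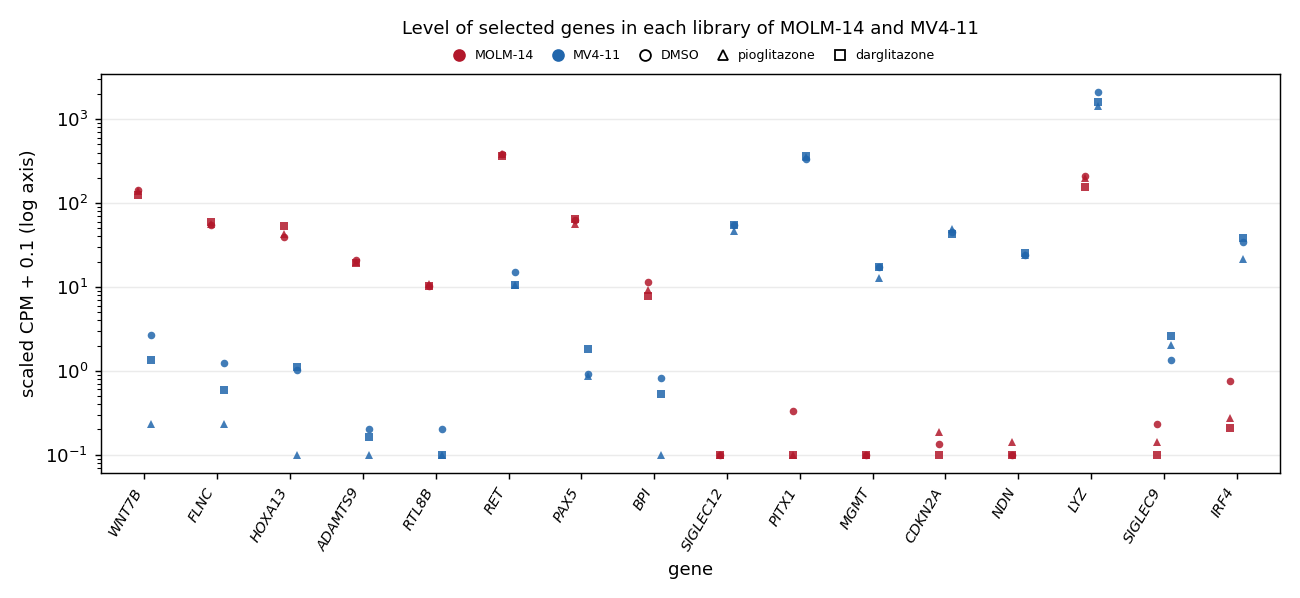
Level of 16 genes in each library of MOLM-14 (red) and MV4-11 (blue), as scaled CPM plus 0.1 on a log axis, with 1 symbol per library and its shape giving the treatment. WNT7B, FLNC and HOXA13 stand high in MOLM-14 and lowest in the MV4-11 pioglitazone library or at its level, while SIGLEC12 and MGMT sit at the floor of the axis in all 3 MOLM-14 libraries.

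Genes present in one line at 10 CPM or more in each library and at 0.5 CPM or less in each library of the other numbered 23 for MOLM-14 and 48 for MV4-11. The MOLM-14 number was 44 without the MV4-11 DMSO library and 79 with the pioglitazone library alone for MV4-11. The MV4-11 number was 59 when that library alone stood for MV4-11. Every library had to meet its limit, so leaving libraries out can only raise either number. What set the numbers was not tested. Of the 23 genes, 14 were at 0.5 CPM or less (median of 3) in OCI-AML3 and KG-1a as well, among them FOXO1. Of the 48, 13 had this profile, 10 were at 10 CPM or more in OCI-AML3 and 19 in KG-1a. FOXO1, a transcription factor restrained by PI3K signalling, stood at 11.4, 13.7 and 15.6 CPM in MOLM-14 against 0.415, 0.129 and 0.0915 CPM in MV4-11. PROSER1, on chromosome 13, was in the opposite list, with 1 count in MOLM-14 and 14.4, 12.7 and 11.4 CPM in MV4-11. FOXO1 and PROSER1 were named after their values were seen, as were the members of runs of neighbours, HOTAIRM1, HOTTIP and HOXA10-AS below.

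The HOXA cluster on chromosome 7 is the best known output of KMT2A fusions, and its genes differed in how far the lines stood apart. HOXA9, which with MEIS1 drives these leukaemias, was level between the lines. It stood at 35.2, 33.2 and 36.5 CPM in MOLM-14 and 29.9, 42.2 and 30.9 CPM in MV4-11, and the libraries overlapped (log2 fold change 0.04, 95% interval from -0.32 to 0.41, edgeR adjusted p = 0.867). HOXA10, its neighbour, was slightly higher in MOLM-14, at 54.9, 56.4 and 59.6 CPM against 35.5, 40.5 and 41.5 CPM (log2 fold change 0.54, SE 0.14, edgeR adjusted p = 0.00632), and without the MV4-11 DMSO library the edgeR adjusted p was 0.0646. On both sides of this pair MOLM-14 held transcripts that MV4-11 hardly had.

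HOXA13, the last gene of the cluster and a factor of limb and urogenital patterning (27193503 to 27200106), stood at 39.6, 43.1 and 53.8 CPM in MOLM-14. In MV4-11 it stood at 0.933, 0 and 1.01 CPM (log2 fold change 6.01, SE 0.49, edgeR adjusted p = 9.22e-07). HOXA11 stood at 23.7, 23.6 and 23.9 CPM against 5.29, 3.88 and 6.10 CPM, a log2 fold change of 2.25. Toward the other end, HOXA7 stood at 9.84, 8.66 and 7.70 CPM against 0.311, 0.129 and 0.122 CPM (log2 fold change 5.55). HOXA6 had 348 counts in MOLM-14 and 1 in MV4-11, and HOXA3 had 120 and 1. With the pioglitazone library alone for MV4-11, HOXA3 had an edgeR adjusted p of 0.0528. HOXA5 stood at 3.88, 5.18 and 2.78 CPM against 0.207, 0.259 and 0.061 CPM (log2 fold change 4.67).

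Of 13 tested members of the cluster, its antisense RNAs included, 10 were higher in MOLM-14, none was higher in MV4-11 and 3 did not pass. The share past the threshold was 76.9% and the median log2 fold change 2.39, beside 37.1% and 0.00 over all tested genes. The 3 were HOXA9, HOTAIRM1 and HOXA10-AS. With the MV4-11 pioglitazone library alone, the median over 15 tested members was 4.24, beside 0.083 over all genes tested in that fit. OCI-AML3, which carries no KMT2A fusion, held HOXA5, HOXA7 and HOXA11 in every library, at 3.75 to 16.8 CPM, but HOXA13 at no more than 0.877 CPM. In KG-1a, HOXA9 and HOXA10 stood at 37.5 to 69.9 CPM while HOXA5, HOXA6, HOXA7, HOXA11 and HOXA13 did not exceed 0.453 CPM. The sources used here do not say whether the counting used the strand, and genes that overlap on opposite strands, such as HOXA13 and HOTTIP, cannot be separated without it.

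**Figure D2:**
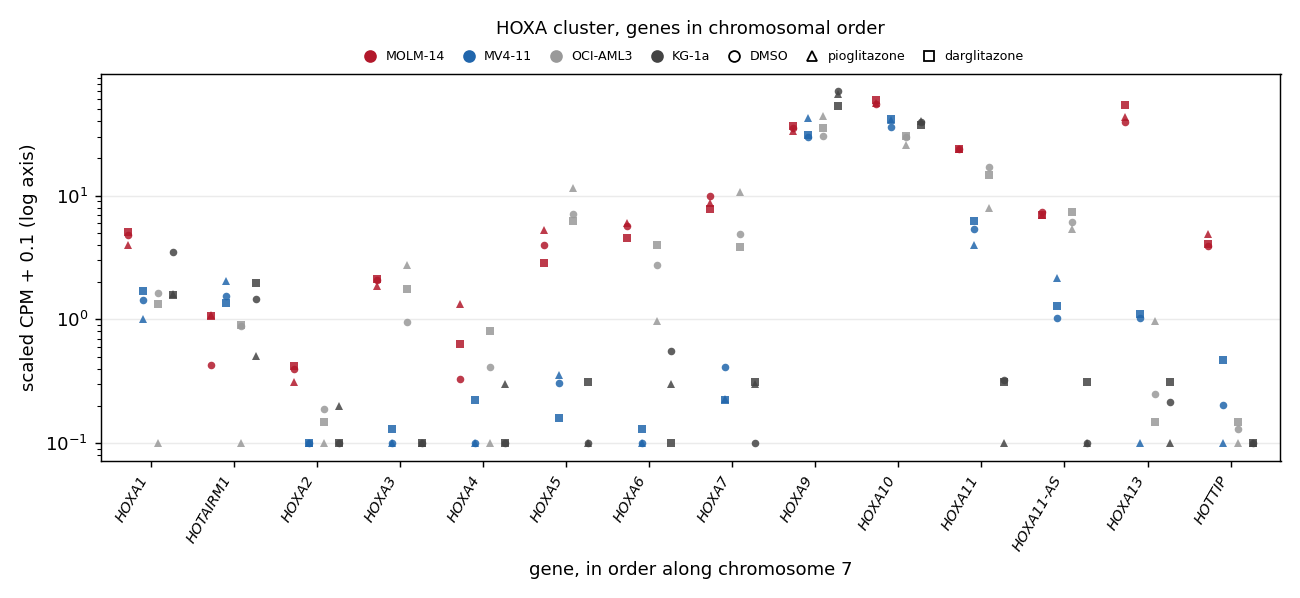
Level of the genes of the HOXA cluster in chromosomal order in each library of the 4 lines, as scaled CPM plus 0.1 on a log axis, with colour for the line and symbol for the treatment. The 4 lines come together at HOXA9 and HOXA10 and stand apart on both sides, and HOXA13 is above 30 CPM in MOLM-14 and near the floor in MV4-11, OCI-AML3 and KG-1a.

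The starts of the shared and of the unshared gene differ in base composition. The sequences are from RefSeq (GRCh38.p14), cover the 250 bases before the annotated start on the minus strand of chromosome 7, and carry CpG dinucleotides in capitals. HOXA9 (chr7:27165538-27165787) has 20 CpG and 48.8% G+C. HOXA13 (chr7:27200092-27200341) has 40 CpG and 78.0% G+C. They are shown because HOXA9 was level and HOXA13 was not. Both are reference sequences and not those of the lines, and the other genes of the cluster were not compared. A link between base composition and level was not tested.
HOXA9: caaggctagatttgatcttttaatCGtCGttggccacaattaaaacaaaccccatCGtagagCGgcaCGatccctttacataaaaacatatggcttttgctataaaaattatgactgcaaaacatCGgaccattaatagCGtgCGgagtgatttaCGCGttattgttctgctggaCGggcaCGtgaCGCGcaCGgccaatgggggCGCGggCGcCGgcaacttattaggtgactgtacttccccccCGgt
HOXA13: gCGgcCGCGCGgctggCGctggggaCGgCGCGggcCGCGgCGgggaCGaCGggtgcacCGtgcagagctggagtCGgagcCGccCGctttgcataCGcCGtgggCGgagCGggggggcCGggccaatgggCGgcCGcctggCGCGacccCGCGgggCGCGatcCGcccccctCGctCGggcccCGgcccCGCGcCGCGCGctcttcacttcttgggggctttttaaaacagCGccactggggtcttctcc

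MEIS1 and PBX3, the DNA-binding partners of HOXA9, stood close in both lines. MEIS1 was at 42.9, 50.4 and 51.4 CPM in MOLM-14 and 67.0, 61.0 and 68.1 CPM in MV4-11 (log2 fold change -0.44, SE 0.17, edgeR adjusted p = 0.0524). PBX3 was at 66.4, 56.5 and 58.7 CPM against 41.9, 45.8 and 48.6 CPM (log2 fold change 0.41, edgeR adjusted p = 0.0706). Neither gene had overlapping libraries, and both passed when the 6 libraries of the 2 lines were fitted alone, with edgeR adjusted p of 0.0023 for MEIS1 and 0.0094 for PBX3.

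The other KMT2A fusion targets divided between the lines. Of 38 tested, 13 were higher in MOLM-14 and 9 in MV4-11 (57.9% beside 37.1% over all genes tested), with a median log2 fold change of -0.03. IGF2BP3, an RNA-binding protein of fetal cells, stood at 31.0, 33.0 and 31.8 CPM in MOLM-14 against 0.829, 0 and 0.366 CPM. SKIDA1, a gene of chromosome 10, stood at 60.5, 65.9 and 70.9 CPM against 1.76, 0.129 and 0.671 CPM. CCNA1, the germ-cell cyclin that is often high in AML, went the other way, at 2.98, 2.70 and 2.56 CPM in MOLM-14 and 54.5, 44.5 and 37.0 CPM in MV4-11 (log2 fold change -4.02, SE 0.35). The hyaluronate receptor gene CD44 and the LIM-domain factor gene LMO2 were also higher in MV4-11, with log2 fold changes of -1.99 and -1.72.

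Among 29 tested cofactors of KMT2A fusions, 7 were higher in MOLM-14 and 4 in MV4-11. Their share past the threshold, 37.9%, was close to the 37.1% over all genes tested. KMT2A itself stood at 59.6, 56.3 and 56.2 CPM in MOLM-14 and 132, 117 and 130 CPM in MV4-11 (log2 fold change -1.14, SE 0.14, edgeR adjusted p = 2.29e-05). The fusion partner MLLT3 stood at 12.8, 8.53 and 11.4 CPM in MOLM-14, the line with its fusion, against 3.11, 0.905 and 2.69 CPM (log2 fold change 2.22, SE 0.29). AFF1, the partner in MV4-11, was not higher there: it stood at 122, 106 and 102 CPM against 159, 153 and 148 CPM in MOLM-14 (log2 fold change 0.49, SE 0.12, edgeR adjusted p = 0.00442, and 0.15 with the pioglitazone library alone for MV4-11). These levels cannot separate fused from unfused transcripts. AFF3, a relative of AFF1 in the elongation complex, stood at 26.0, 24.3 and 28.1 CPM against 77.3, 77.3 and 72.4 CPM. The kinase CDK9 was higher in MV4-11 by 1.04 log2 units (fitted log2 fold change -1.04), and the PAF complex member CTR9 was higher in MOLM-14 by 1.21.

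FLT3 was strongly expressed in both lines. It stood at 262, 296 and 307 CPM in MOLM-14 and 323, 521 and 410 CPM in MV4-11, without overlap (log2 fold change -0.54, SE 0.67, edgeR adjusted p = 0.584). FLT3 in KG-1a ranged from 0.604 to 16.8 CPM, and that spread enters the SE. Fitted to the 6 libraries of MOLM-14 and MV4-11 alone, the log2 fold change of FLT3 was -0.53 with an edgeR adjusted p of 0.0014.

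Genes known to answer FLT3 and STAT5 signalling did not move as one. Of 42 tested, 13 were higher in MOLM-14 and 7 in MV4-11 (47.6% beside 37.1% over all genes tested, median 0.23). SOCS2, a STAT5 target that damps cytokine receptors, stood at 140, 140 and 137 CPM in MOLM-14 and 28.7, 19.3 and 20.2 CPM in MV4-11 (log2 fold change 2.63, SE 0.20, edgeR adjusted p = 1.76e-07). SPRED1 and SPRY2, which restrain the RAS pathway, were higher in MOLM-14 too. SPRED1 stood at 17.5, 17.2 and 18.1 CPM against 0.311, 0.129 and 0.214 CPM, and SPRY2 at 36.4, 33.9 and 35.6 CPM against 2.90, 4.79 and 2.75 CPM. The D cyclins CCND1 and CCND2 followed, CCND2 with 319, 330 and 319 CPM against 69.5, 72.2 and 77.5 CPM. The adaptor GRB2, which links receptors to RAS, was the exception among the 6 smallest p-values, at 294, 293 and 295 CPM in MOLM-14 and 796, 833 and 771 CPM in MV4-11.

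Of 31 tested receptor tyrosine kinases, 9 were higher in MOLM-14 and 6 in MV4-11, a share of 48.4% beside 37.1% over all genes tested. RET, the receptor for glial cell line-derived neurotrophic factors (chromosome 10), stood at 383, 382 and 363 CPM in MOLM-14, and at 14.9, 10.5 and 10.5 CPM in MV4-11. Its log2 fold change of 5.01 (SE 0.21, edgeR adjusted p = 8.3e-10) had no overlap between libraries. FGFR1, a fibroblast growth factor receptor, stood at 148, 144 and 150 CPM against 15.1, 8.93 and 12.4 CPM. The ephrin receptor EPHB4 stood at 63.0, 64.7 and 62.2 CPM against 6.12, 5.95 and 6.10 CPM, while its relative EPHB6, which lacks kinase activity, was at 0.696, 0.428 and 0.321 CPM against 22, 21.5 and 27.2 CPM. LTK was another kinase gene of MV4-11, at 31.4, 24.6 and 30.4 CPM against 1.62, 0.814 and 1.39 CPM.

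Monocyte and macrophage genes passed more often in favour of MV4-11. Of 38 tested, 18 were higher in MV4-11, 4 were higher in MOLM-14 and 16 did not pass, with a median log2 fold change of -0.78. The share past the threshold was 57.9%, beside 37.1% over all genes tested. NCF4, a subunit of the phagocyte oxidase, stood at 50.8, 57.2 and 52.2 CPM in MOLM-14 and 245, 241 and 247 CPM in MV4-11. CSF2RB, the shared beta chain of the receptors for GM-CSF, IL-3 and IL-5, stood at 15.4, 14.1 and 13.2 CPM against 73.0, 80.3 and 75.1 CPM. TYROBP and FCER1G, a pair of adaptors of activating receptors, had log2 fold changes of -2.90 and -4.42. ITGAM, the gene of the myeloid integrin CD11b, ran against the list, at 21.3, 19.8 and 23 CPM in MOLM-14 and 1.76, 1.03 and 2.93 CPM in MV4-11. CD14, below 1 CPM in every library of both lines, leaned to MOLM-14 without passing (log2 fold change 3.55, edgeR adjusted p = 0.0916).

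The SIGLEC genes, a family named for sialic acid binding, had the highest share past the threshold of the 41 lists. It was 81.8%, beside 37.1% over all genes tested. Of 11 tested SIGLEC genes, 9 were higher in MV4-11, none in MOLM-14 and 2 did not pass, and the median log2 fold change was -4.53. Beside SIGLEC12, the genes SIGLEC14 (0.265, 0.386 and 0 CPM in MOLM-14, 8.71, 8.54 and 13.6 CPM in MV4-11), SIGLEC6 (0.0662, 0.471 and 1.07 CPM against 7.77, 10.1 and 10.8 CPM) and SIGLEC7 (1 MOLM-14 library above 0, at 0.0857 CPM, against 6.63, 5.30 and 8.54 CPM) were nearly absent from MOLM-14. CD33, the SIGLEC used as an antibody target in AML, was present in both, at 49.8, 51.4 and 59.3 CPM and 142, 147 and 170 CPM (log2 fold change -1.52, SE 0.20). SIGLEC5 and SIGLEC14 are near-identical in part, and their split of reads is uncertain. Chromosome 19, where the cluster lies, had a lower median in MOLM-14, given below, and its part in this count was not tested.

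Of 37 tested myeloid transcription factors, 16 were higher in MV4-11, 4 were higher in MOLM-14 and 17 did not pass (median -0.52). The share past the threshold was 54.1%, beside 37.1% over all genes tested. RUNX3 stood at 30.9, 22.4 and 27.4 CPM in MOLM-14 and 102, 117 and 100 CPM in MV4-11. IRF5, a factor of inflammatory macrophages, stood at 23.1, 27.4 and 23.1 CPM against 98.9, 89.8 and 103 CPM. RARA, the retinoic acid receptor gene, had a log2 fold change of -1.76 and RUNX2 one of -1.40. Of 44 cytokine and chemokine receptors, 19 were higher in MV4-11 and 4 in MOLM-14 (52.3% beside 37.1% over all genes tested, median -0.70). Those higher in MV4-11 included IL2RG, the common gamma chain, with 1.32, 2.31 and 1.39 CPM against 11.1, 23.4 and 12.2 CPM. TGFBR2 was another, with 19, 17.4 and 20.3 CPM against 56.3, 55.8 and 53.2 CPM.

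Granule genes, which mark the granulocytic side, were divided. Of 17 tested, 5 were higher in MOLM-14 and 3 in MV4-11 (47.1% beside 37.1% over all genes tested). Myeloperoxidase (MPO) stood at 64.8, 61.2 and 30.1 CPM in MOLM-14 and 14.6, 6.99 and 11.1 CPM in MV4-11 (log2 fold change 2.24, SE 0.27). The bactericidal protein gene BPI stood at 11.3, 9.04 and 7.80 CPM against 0.726, 0 and 0.427 CPM. Lysozyme (LYZ) was the reverse, at 213, 198 and 156 CPM in MOLM-14 and 2127, 1449 and 1609 CPM in MV4-11 (log2 fold change -3.16, SE 0.44, edgeR adjusted p = 0.00116). MS4A3, a membrane gene of granulocyte precursors, stood at 5.30, 5.27 and 3.42 CPM against 310, 227 and 331 CPM, with an edgeR adjusted p of 0.0764 when the pioglitazone library alone stood for MV4-11. Surface antigens used to type AML followed the monocytic list, 10 of 24 higher in MV4-11 and 3 in MOLM-14 (54.2% beside 37.1% over all genes tested). The 3 included CD93 (150, 147 and 152 CPM against 16.4, 9.31 and 8.79 CPM) and CD38 (22.4, 23.4 and 29.3 CPM against 2.07, 0.647 and 1.25 CPM).

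PAX5, the factor that commits cells to the B lineage, stood at 63.5, 57.0 and 65.3 CPM in MOLM-14 and 0.829, 0.776 and 1.71 CPM in MV4-11 (log2 fold change 5.79, SE 0.31, edgeR adjusted p = 1.04e-08). IGLL1, a part of the pre-B cell receptor, stood at 0.133, 0.0428 and 0.107 CPM in MOLM-14 and 30.8, 8.02 and 13.8 CPM in MV4-11. Of 19 tested B lymphoid genes, 8 were higher in MV4-11 and 3 in MOLM-14 (57.9% beside 37.1% over all genes tested). NCAM1, the CD56 gene, stood at 70.0, 71.0 and 67.2 CPM in MOLM-14 against 2.80, 1.68 and 1.28 CPM.

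KIT and CD34, progenitor markers, were low in both lines. KIT stood at 1.23, 0.643 and 0.534 CPM in MOLM-14 and 6.01, 1.55 and 4.03 CPM in MV4-11 (log2 fold change -2.16, edgeR adjusted p = 0.0123). KIT did not pass without the MOLM-14 darglitazone or the MV4-11 DMSO library (edgeR adjusted p = 0.0699 and 0.144) or with the libraries thinned to 1 depth (0.0526). CD34 did not pass (0.265, 0.557 and 1.39 CPM against 1.24, 1.16 and 3.48 CPM, edgeR adjusted p = 0.266, and 0.0446 with the 6 libraries alone) and its libraries overlapped. WT1, a zinc finger gene followed in AML as a marker of residual disease, stood at 41.6, 37.1 and 38.0 CPM in MOLM-14 and 16.6, 12.0 and 17.7 CPM in MV4-11 (log2 fold change 1.35, SE 0.17).

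**Figure D3:**
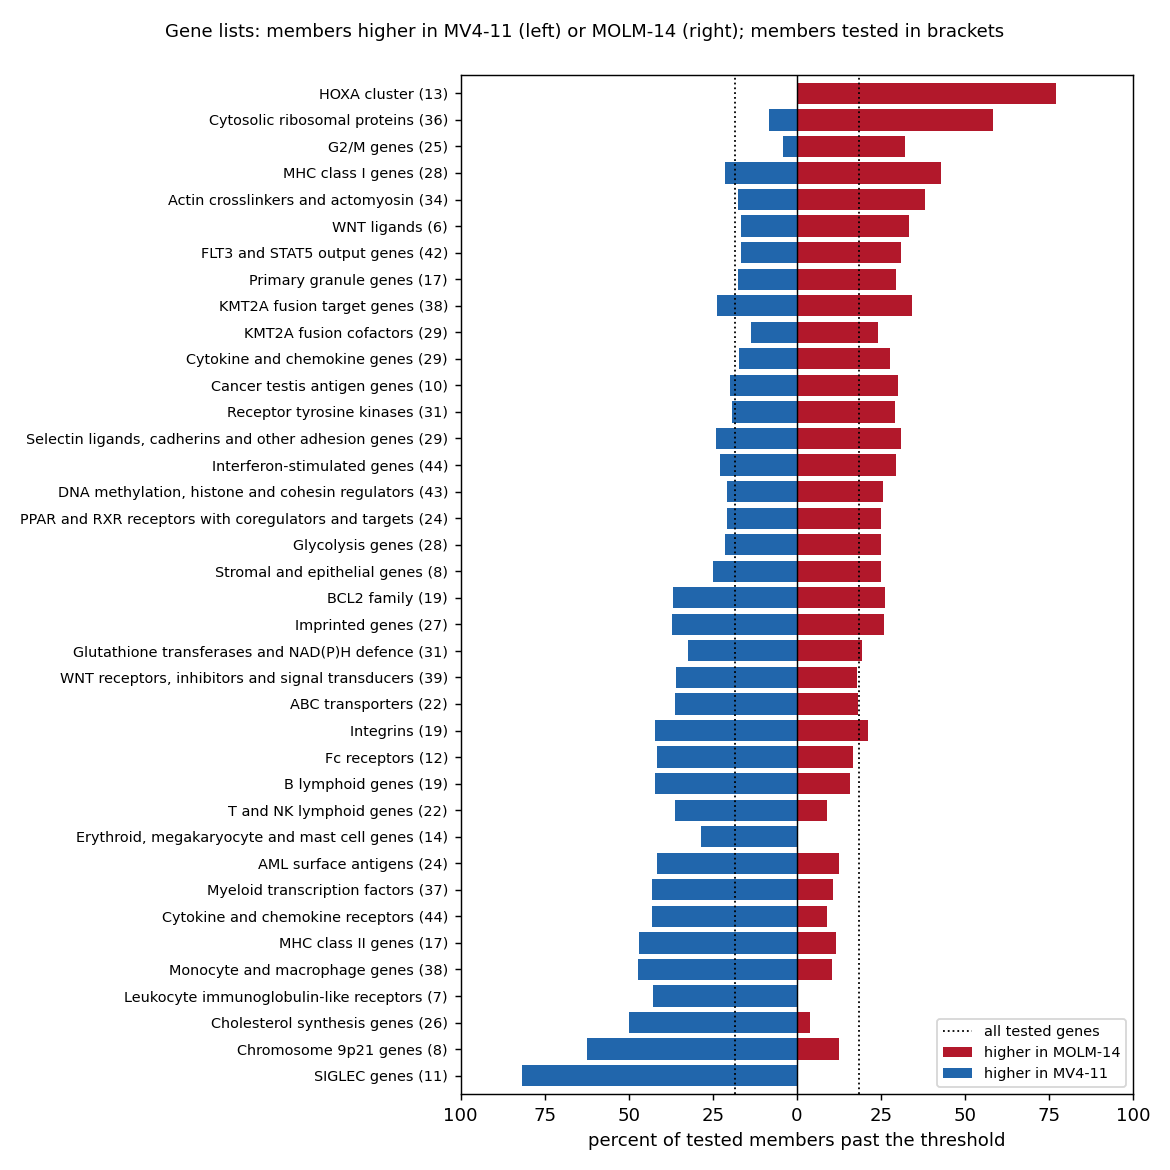
Percent of the tested members of each gene list that passed the threshold, drawn to the right where higher in MOLM-14 and to the left where higher in MV4-11, for lists with 5 or more tested members. Dotted lines mark the same percents over all tested genes, and the HOXA cluster (right) and the SIGLEC genes (left) have the longest bars.

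Of 28 tested genes of the class I pathway, 12 were higher in MOLM-14 and 6 in MV4-11, and of 17 of class II, 2 and 8 were. The shares past the threshold were 64.3% and 58.8%, beside 37.1% over all genes tested. The peptide-trimming enzymes ERAP1 (80.2, 84.3 and 89.5 CPM in MOLM-14, 20.6, 19.1 and 24.9 CPM in MV4-11) and ERAP2 (43.1, 41.3 and 39.9 CPM against 5.18, 5.17 and 8.36 CPM) were higher in MOLM-14. The class I heavy chain HLA-B was higher in MV4-11, at 622, 632 and 669 CPM against 242, 230 and 265 CPM, and CD74, the class II invariant chain, stood at 139, 131 and 128 CPM in MOLM-14 against 431, 482 and 453 CPM. A run of neighbouring genes for ligands of the NKG2D receptor on chromosome 6, RAET1E, ULBP2, ULBP1 and ULBP3, was higher in MOLM-14, with log2 fold changes from 2.20 to 3.96. The calls of ULBP1, ULBP2 and ULBP3 were lost when single libraries were left out. The edgeR adjusted p of ULBP1 was 0.0626 without the MOLM-14 DMSO library and 0.061 without the MV4-11 DMSO library. That of ULBP2 was 0.113 to 0.217 without any 1 library other than MV4-11 pioglitazone, and that of ULBP3 was 0.0579 to 0.067 without the pioglitazone or the darglitazone library of either line.

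Interferon-stimulated genes also divided, 13 of 44 higher in MOLM-14 and 10 in MV4-11 (52.3% beside 37.1% over all genes tested). The IFIT genes lie next to each other on chromosome 10 (89283694 to 89421001), encode sensors of foreign RNA, and were low in level and higher in MOLM-14. IFIT5 stood at 2.02, 3.13 and 3.10 CPM against 0, 0 and 0.0915 CPM, and IFIT1 at 1.13, 0.986 and 1.60 CPM against 0, 0.129 and 0.061 CPM. With the pioglitazone library alone for MV4-11, the edgeR adjusted p was 0.173 for IFIT1 and 0.126 for IFIT3. OAS3, which makes the activator of RNase L, stood at 6.46, 6.99 and 5.67 CPM against 0.415, 0 and 0.214 CPM, and the deubiquitylase-like gene USP18 had a log2 fold change of 2.35. The membrane restriction factors IFITM2 (27.3, 22 and 23.7 CPM against 76.9, 80.5 and 75.2 CPM) and BST2 (21.9, 22.6 and 22.9 CPM against 74.1, 68.0 and 76.9 CPM) and the factor STAT2 were higher in MV4-11.

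The interferon-stimulated response element was searched in the promoters of the list, on both strands, as GAAA, any 2 bases and GAAA. Of 31 tested members of the list with a promoter in the RefSeq table (250 bases before to 50 after the start), 20 had it (64.52%), against 3.65% of 27305 promoters. It was there in 6 of 9 promoters of the members higher in MOLM-14, in 4 of 7 of those higher in MV4-11 and in 10 of 15 of those that did not pass. The 250 bases before the start are shown for a pair of the IFIT genes, on the plus strand of chromosome 10 from RefSeq (GRCh38.p14), with the element, on either strand, in capitals. IFIT1 is at chr10:89392373-89392622 and IFIT3 at chr10:89327747-89327996.
IFIT1: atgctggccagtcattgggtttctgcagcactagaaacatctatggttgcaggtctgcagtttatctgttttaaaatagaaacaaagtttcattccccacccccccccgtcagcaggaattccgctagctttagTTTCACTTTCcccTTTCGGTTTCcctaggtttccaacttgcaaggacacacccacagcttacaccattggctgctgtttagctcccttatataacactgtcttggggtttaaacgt
IFIT3: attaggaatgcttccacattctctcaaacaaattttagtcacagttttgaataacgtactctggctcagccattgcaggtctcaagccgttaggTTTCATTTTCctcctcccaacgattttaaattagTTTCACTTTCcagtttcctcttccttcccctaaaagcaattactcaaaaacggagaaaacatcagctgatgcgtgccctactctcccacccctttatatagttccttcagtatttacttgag

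Of 34 tested actin crosslinkers and actomyosin genes, 13 were higher in MOLM-14 and 6 in MV4-11 (55.9% beside 37.1% over all genes tested). SPTBN1, a spectrin that braces the membrane, stood at 136, 123 and 127 CPM in MOLM-14 and 5.60, 6.47 and 4.97 CPM in MV4-11 (log2 fold change 4.52, SE 0.15, edgeR adjusted p = 1.13e-10). FSCN1, which bundles actin in cell protrusions, stood at 193, 176 and 161 CPM against 13.1, 14.6 and 11.9 CPM. Of 19 tested integrins, 8 were higher in MV4-11 and 4 in MOLM-14 (63.2% beside the same 37.1%). ITGAL, the gene of the leukocyte integrin CD11a, stood at 242, 226 and 224 CPM in MOLM-14 and 1399, 1651 and 1490.0 CPM in MV4-11, and ITGA2B at 0.199, 0.0857 and 0 CPM against 8.81, 7.50 and 9.86 CPM.

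Genes of the WNT pathway differed in both directions. Of 6 tested WNT ligands, WNT7B and WNT5B were higher in MOLM-14 and WNT3 in MV4-11. Without the MV4-11 DMSO library neither WNT5B (edgeR adjusted p = 0.0612) nor WNT3 (0.087) passed, nor did WNT5B without the MV4-11 darglitazone library (0.0838) or WNT3 without the MOLM-14 DMSO library (0.0572). Of 39 tested receptors, inhibitors and transducers, 7 were higher in MOLM-14 and 14 in MV4-11, a share of 53.8% beside 37.1% over all genes tested. Leaving out each library in turn gave 5 to 7 and 8 to 10. LRP6, a co-receptor for WNT ligands, stood at 12.5, 14.3 and 12.9 CPM in MOLM-14 and 0.518, 0 and 0.153 CPM in MV4-11, and the receptors RYK and FZD6 had log2 fold changes of 1.56 and 1.86. PORCN, the enzyme that acylates WNT ligands before secretion, was lower in MOLM-14, at 1.19, 1.67 and 1.92 CPM against 5.80, 8.02 and 9.73 CPM. NKD1, an inhibitor that the pathway itself induces, stood at 0.497, 0.643 and 1.18 CPM in MOLM-14 and 11.4, 15.9 and 13.3 CPM in MV4-11.

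A block on the short arm of chromosome 9 was marked by CDKN2A, which encodes the inhibitors p16 and ARF. It stood at 0.0331, 0.0857 and 0 CPM in MOLM-14 (3 counts in all) and 45.4, 48.8 and 42.4 CPM in MV4-11, a pooled ratio of 922 with a 95% counting interval from 315 to 4470.0. Its neighbour CDKN2B had no count in MOLM-14 and 0.726, 3.49 and 1.68 CPM in MV4-11, at least 37.2-fold higher. MTAP, which lies next to CDKN2A and salvages methionine, was present in both, at 21.8, 24.5 and 21.7 CPM against 42.1, 43.1 and 46.4 CPM (log2 fold change -0.95, SE 0.14). Of 8 tested genes of the region, 5 were higher in MV4-11 and 1, MLLT3, in MOLM-14. CDKN2A was present in OCI-AML3 (18.4 to 33.9 CPM) and KG-1a (52.9 to 69.0 CPM).

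The histone gene cluster on chromosome 6 gave the sharpest local pattern. Histone genes are read in S phase, and their RNAs end in a stem-loop without a poly(A) tail, so they are seen in libraries made from total RNA. Of 30 tested genes of the cluster, 13 were higher in MOLM-14, 11 in MV4-11, and 8 did not exceed 1 CPM in any MOLM-14 library. Over all genes tested, 18.6% were higher in MOLM-14 and 18.4% in MV4-11. A block of 5 tested neighbours (26240426 to 26273356) was near 0 in MOLM-14. In it H3C8 stood at 0.0331, 0.0857 and 0 CPM against 208, 147 and 153 CPM, H3C7 at 0.0994, 0.257 and 0.107 CPM against 308, 230 and 222 CPM, and H2BC10 at 0.0662, 0.214 and 0.107 CPM against 165, 100.8 and 123 CPM. H2BC9 had 11 counts in MOLM-14 and 7013 in MV4-11, and H4C6 had 1 and 1120.

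Genes on either side of the block, H1-3 and H4C8, were present in both lines, H1-3 at 64.1, 66.9 and 59.9 CPM against 189, 155 and 157 CPM, and H4C8 at 155, 149 and 132 CPM against 146, 111 and 109 CPM. HIST1H3C, nearer the start of the cluster, had 3 counts in MOLM-14 and stood at 215, 160 and 163 CPM in MV4-11. The same 5 genes were low in OCI-AML3, at no more than 3.51 CPM, and present in KG-1a except for H4C6, which did not exceed 0.209 CPM there. Summed over the cluster, MOLM-14 held 7087 to 7739 CPM and MV4-11 4919 to 6645 CPM. Histone genes are near-identical copies, and estimated counts can assign their reads unevenly, so the level of a single copy is uncertain. The histone genes named here, and the block, were chosen after their values were seen except for those among the largest differences.

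**Figure D4:**
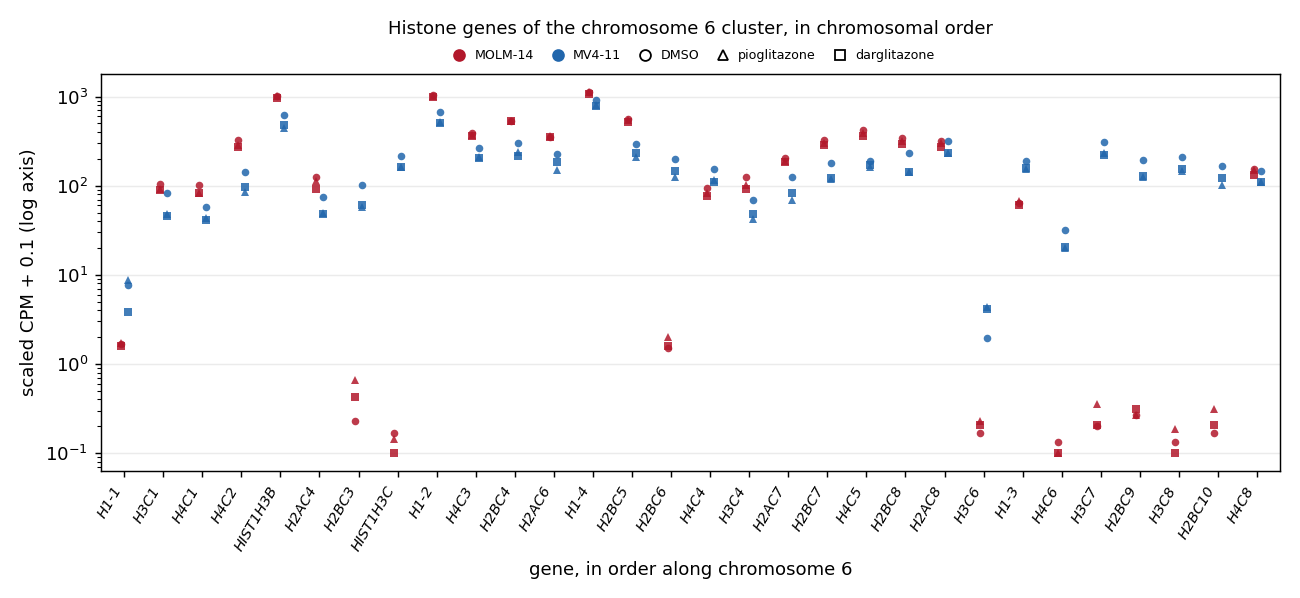
Level of the 30 tested histone genes of the chromosome 6 cluster, in chromosomal order, in each library of MOLM-14 (red) and MV4-11 (blue), as scaled CPM plus 0.1 on a log axis. In MOLM-14, 8 genes do not exceed 1 CPM, 5 of them side by side from H4C6 to H2BC10, while H1-3 and H4C8 on either side stand above 50 CPM in both lines.

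Promoters were in the RefSeq table for 28 of the 30 genes. The letters CCAAT, searched on both strands, were in 8 of 8 promoters of the genes near 0 in MOLM-14 and in 16 of 20 of the others, against 35.7% of 27305 RefSeq promoters. The letters TATAAA were in 3 of 8 and 14 of 20, against 12.0%. The 250 bases before the start of H3C8 (chr6:26271414-26271663, minus strand) and H2BC10 (chr6:26272681-26272930, plus strand), which point away from each other across a short gap, are shown with CCAAT, on either strand, in capitals, since these genes carry the block.
H3C8: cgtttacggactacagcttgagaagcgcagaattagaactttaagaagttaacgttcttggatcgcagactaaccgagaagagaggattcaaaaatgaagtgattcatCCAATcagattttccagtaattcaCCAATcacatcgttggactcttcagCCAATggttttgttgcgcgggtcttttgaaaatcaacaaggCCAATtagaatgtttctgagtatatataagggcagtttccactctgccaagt
H2BC10: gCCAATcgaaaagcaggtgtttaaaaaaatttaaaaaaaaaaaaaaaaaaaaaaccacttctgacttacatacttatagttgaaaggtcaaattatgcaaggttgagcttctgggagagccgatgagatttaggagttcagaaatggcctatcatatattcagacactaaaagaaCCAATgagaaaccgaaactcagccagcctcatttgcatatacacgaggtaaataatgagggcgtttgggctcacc

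Differences were also unevenly spread over chromosomes. The median log2 fold change of tested protein-coding genes was 0.00 over all 12849, and 0.70 on chromosome 13 (217 genes), 0.59 on chromosome 6 (683 genes), 0.51 on chromosome 10 (490 genes) and 0.31 on chromosome 12 (688 genes), all higher in MOLM-14. On chromosome 13, 80.2% of genes were above 0, beside 50.2% of all tested protein-coding genes. Chromosome 19 went the other way, with a median of -0.33 over 1029 genes. Of them, 33.2% passed the threshold in favour of MV4-11, beside 20.1% of all tested protein-coding genes. Divided by position into 3 parts with equal numbers of genes, chromosome 12 had medians of 0.04, 0.27 and 0.60, and chromosome 19 had -0.04, -0.21 and -0.70. Chromosomes 6, 10 and 13 were shifted along their whole length, with medians of the parts between 0.36 and 0.89. Genes of a chromosome are not independent, and copy number was not measured.

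**Figure D5:**
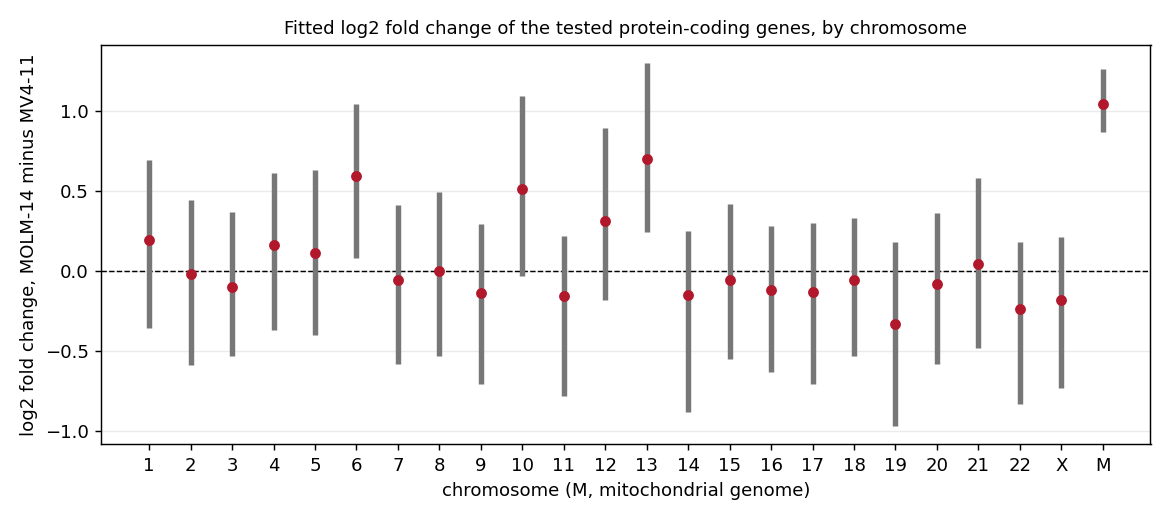
Median (point) and interquartile range (bar) of the fitted log2 fold change, MOLM-14 minus MV4-11, of the tested protein-coding genes of each chromosome and of the mitochondrial genome. Chromosomes 6, 10, 12 and 13 lie above the dashed median of all genes, chromosome 19 lies below it, and the 13 mitochondrial genes have a median of 1.04.

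MOLM-14 minus OCI-AML3 had a median of 0.37 on chromosome 13 and MV4-11 minus OCI-AML3 one of -0.28, and on chromosome 6 these were 0.14 and -0.33. On chromosome 19 they were 0.39 and 0.71, so both lines stood above OCI-AML3 and MV4-11 the more so. These contrasts share the OCI-AML3 libraries, use log2 of the mean CPM plus 0.5, and carry no test.

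Runs of neighbours that differed at least 4-fold in 1 direction were searched after the values were seen, over 12092 genes, with 4 genes as the shortest run, and 12 were found. In MOLM-14 the longest held DNAJC1, COMMD3, BMI1 and SPAG6 with a read-through gene on chromosome 10 (21756537 to 22454224). BMI1, a Polycomb gene of stem cell renewal, stood at 130, 141 and 143 CPM in MOLM-14 and 13.6, 6.73 and 10.0 CPM in MV4-11 (log2 fold change 3.77, SE 0.22), and SKIDA1, described above, lies beside this run. Of the MV4-11 runs, 4 lay on chromosome 19 and were made mostly of zinc finger genes of the KRAB type, such as ZNF91 (0.265, 0.386 and 0.214 CPM in MOLM-14, 21.5, 26.9 and 25.3 CPM in MV4-11) and ZNF93 (0.398, 0.600 and 0 CPM against 18.2, 23.7 and 20.4 CPM). Over chromosome 19, 35 of 240 tested ZNF and ZFP genes were at least 4-fold higher in MV4-11 and 6 in MOLM-14. On other chromosomes these numbers were 8 and 6 of 243, and among the other 789 protein-coding genes of chromosome 19 they were 73 and 16.

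Of 36 tested cytosolic ribosomal protein genes, 21 were higher in MOLM-14 and 3 in MV4-11 (66.7% beside 37.1% over all genes tested), with a median log2 fold change of 0.39. RPS18 stood at 5040.0, 4815 and 5179 CPM against 2138, 2470.0 and 2645 CPM, and RPS19 ran the other way, at 1691, 1600.0 and 1667 CPM against 2388, 2541 and 2607 CPM. With the MV4-11 pioglitazone library alone, the median of the ribosomal protein genes was 0.21, beside 0.083 over all genes tested in that fit. The 13 protein-coding genes of the mitochondrial genome summed to 3164, 3971 and 3495 CPM in MOLM-14 and 1579, 1971 and 2295 CPM in MV4-11. Of these genes, 11 passed, each higher in MOLM-14 (84.6%, beside 20.6% over all tested protein-coding genes). Of 25 tested G2/M genes, 8 were higher in MOLM-14 and 1 in MV4-11, with MKI67 at 351, 299 and 236 CPM against 261, 140 and 166 CPM. Their share past the threshold, 36.0%, was close to the 37.1% over all genes tested. The G2/M count fell to 2 without the MOLM-14 pioglitazone library, to 3 without the MOLM-14 darglitazone or the MV4-11 pioglitazone library, and to 4 without the MV4-11 DMSO library.

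Of 26 tested genes of sterol synthesis, 13 were higher in MV4-11 and 1 in MOLM-14 (53.8% beside 37.1% over all genes tested, median -0.51). SQLE, squalene epoxidase, stood at 36.7, 44.4 and 46.2 CPM in MOLM-14 and 107, 248 and 117 CPM in MV4-11 (log2 fold change -1.80, SE 0.18), and TM7SF2, a sterol reductase gene, at 3.91, 5.31 and 5.45 CPM against 20.9, 62.1 and 27.3 CPM. The MV4-11 pioglitazone library was the highest for both. Without it 10 genes of the list were higher in MV4-11, as were 10 without the MOLM-14 pioglitazone library and 8 with no treatment term. LBR, a sterol reductase of the nuclear envelope, was the 1 gene higher in MOLM-14 (153, 160 and 160 CPM against 70.5, 72.7 and 80.1 CPM). Among detoxifying enzymes GSTP1 stood at 174, 174 and 180 CPM against 634, 529 and 542 CPM, and GPX7 at 33.3, 32.6 and 32.3 CPM against 1.87, 0.517 and 0.976 CPM.

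PPARG had 26 counts over the MOLM-14 libraries and 21 over the MV4-11 libraries and was too low to be tested. PPARA stood at 15.9, 12.9 and 16.1 CPM in MOLM-14 and 18.6, 18.6 and 25.6 CPM in MV4-11 (log2 fold change -0.46, 95% interval from -1.04 to 0.12, edgeR adjusted p = 0.203). PPARD stood at 19.9, 15.2 and 16.8 CPM against 9.64, 20.4 and 12.0 CPM (log2 fold change 0.35, 95% interval from -0.48 to 1.19). Of 24 tested receptors, coregulators and targets, 6 were higher in MOLM-14 and 5 in MV4-11 (45.8% beside 37.1% over all genes tested). The target CPT1A, which brings fatty acids into mitochondria, stood at 89.6, 108 and 147 CPM in MOLM-14 and 232, 308 and 312 CPM in MV4-11, and the fatty acid carrier CD36 at 2.92, 2.44 and 1.5 CPM against 18.1, 23.5 and 16.8 CPM.

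Whether the lines answered the drugs differently was tested with the mean of both drugs against DMSO in each line, which leaves 3 residual degrees of freedom. No gene passed in edgeR's quasi-likelihood test (0%, lowest adjusted p of 0.537), and 200 genes (1.3%) had an unadjusted p under 0.05 where 771 would be expected by chance. DESeq2 called 4 and limma-voom none. The 5 named genes were those of smallest p among protein-coding genes with a mean of 5 CPM or more in both lines. PGD, of the pentose phosphate pathway, stood at 160, 163 and 172 CPM in MOLM-14 and 233, 488 and 436 CPM in MV4-11 (difference of log2 responses -0.93, SE 0.30, edgeR adjusted p = 1). The ferritin gene FTH1 stood at 82.5, 78.9 and 110 CPM against 156, 493 and 349 CPM, the lipid droplet gene PLIN2 at 17.3, 18.2 and 22.7 CPM against 7.15, 25.5 and 17.2 CPM, and the quinone reductase gene NQO1 at 22.6, 26.6 and 35.2 CPM against 41.0, 110 and 108 CPM. The read-through gene BLOC1S5-TXNDC5 differed in the opposite sense, with 11.8, 30.2 and 46.5 CPM in MOLM-14 and 19.1, 16.9 and 11.5 CPM in MV4-11. With 1 library per line and treatment, these values have no replicate.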

How the data were processed

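RNA-seq libraries of 4 AML lines under 3 treatments were compared, 6 of the 12 being those of MOLM-14 and MV4-11. The authors deposited estimated counts per transcript, not normalized. The tools fastp, FastQC, STAR, featureCounts and DESeq2 and the build GRCh38 are named, without versions, per the submitters' processing notes. Which tool made the estimated counts, the annotation release and the use of strand are not given in the sources used here. Transcript rows were summed per gene by GENCODE 29 names and rounded to whole numbers.

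All 12 libraries were fitted with line and treatment as terms in edgeR 4.0.16 (R 4.3.3, TMM scaling, filterByExpr with a minimum count of 10, robust quasi-likelihood F test), with Benjamini-Hochberg adjustment at 0.05. The drug response was tested as an interaction. DESeq2 1.42.0, limma-voom 3.58.1, other scalings and filters, the 6 libraries alone, thinned libraries and the leaving out of each library were alternatives. On simulated counts of 14609 genes for MOLM-14 against MV4-11, 42 of 100 genes changed 2-fold and 75 of 100 changed 4-fold were recovered, and 11 unchanged genes were called.

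The members and gene lists were chosen with earlier results of these data known. Named genes were the 15 protein-coding genes with the largest fitted change in each direction at 10 CPM or more in each library of the higher line, WNT7B, FLNC, HOXA13 and a preset group of genes of the lesions, cell identity and drugs, the 6 members of each list with the smallest p among those past the threshold, and the 5 protein-coding genes at a mean of 5 CPM or more in both lines with the smallest p for the drug response. A floor of 3 counts over the 3 libraries of a line, 0.0477 CPM in MOLM-14 on the scaled totals, set lower bounds, and intervals cover counting error only. Promoters were matched by symbol for 10294 of 12842 genes. A few genes and 1 gene list are not reported here.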

Additional observations from a re-analysis of the deposited data

How the results depend on the processing

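Numbers of genes past the threshold kept within 1.5 times of the reported ones under the alternative scalings, filters, tests and depths, at 2620 to 3813 for higher in MOLM-14 and 2642 to 3812 for higher in MV4-11. Leaving out each library in turn gave 2099 to 2321 and 2068 to 2343, and 719 to 788 and 837 to 896 at 4-fold or more. Without the MV4-11 DMSO and darglitazone libraries, an alternative chosen after seeing the data, 1287 and 1474 genes passed. The lone MV4-11 library is then assumed to vary like the others. The 0 genes of the drug response became 11 with no filter on low counts, 4 in DESeq2 and 8 when the pioglitazone libraries of KG-1a and OCI-AML3 were left out, and the cause was not tested.

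Genes restricted to MOLM-14 numbered 5 with an upper limit of 0.2 CPM, 0 with a lower limit of 30 CPM, 24 to 44 leaving out 1 library each, and 79 without the MV4-11 DMSO and darglitazone libraries. Those restricted to MV4-11 numbered 27 and 16 under the first 2 changes and 49 to 55 leaving out 1 library each. Signs turned for genes not past the threshold. HOXA9 ranged from -0.05 (without the MV4-11 DMSO library) to 0.17 leaving out 1 library each, with -0.02 and -0.04 without the MOLM-14 DMSO or darglitazone library, and had -0.20 without the MV4-11 DMSO and darglitazone libraries. PLIN2 ranged from -0.20 (without the MV4-11 DMSO library) to 0.73, and had -0.57 without it and the darglitazone library, for which PPARD had -0.25. BLOC1S5-TXNDC5 had -0.01 in DESeq2 and ranged from -0.42 (without the MV4-11 darglitazone library) to 1.94. Depth limits genes near 0, since 3 counts over a line are 0.0477 CPM in MOLM-14 and 0.0598 CPM in MV4-11. The treatment term already pairs the libraries of the lines by treatment. No further pairing was possible because the replicate numbers are the treatments.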
